A study of Mus musculus with 4 samples.

Results

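The myogenic cells of the B10 and DBA libraries were compared gene by gene, as the satellite cells of 2 healthy strains, the wildtype controls of the dystrophic *mdx* and D2-*mdx* mice. Barcodes were taken from these 2 libraries alone if they held 1000 to 5000 genes, at most 8% of UMIs (unique molecular identifiers, each a counted transcript) from the mitochondrial genome, and at least 2 UMIs summed over *Pax7*, *Myf5*, *Myod1* and *Myog*. This kept 4611 cells of B10 and 2857 of DBA, together 7468 of the 13470 barcodes deposited for both libraries and of the 27425 deposited for all 4. The gate uses only the sum of those 4 transcription factors, so their summed level cannot be read as a result. B10 mice carried the label C57/Bl10ScsSn and were 15 weeks old, and DBA mice carried the label DBA/2 and were 13 weeks old. The B10 age lies above the range that the methods of the study state for adult mice. For each strain, the lower hindlimbs of 2 mice were dissociated with collagenase B and dispase II and pooled. Cells positive for α7-integrin and VCAM1 and negative for Cd11b, Sca1, Cd45 and Cd31 were then sorted into 1 library by 10X Genomics 3′ V3.1 chemistry. According to the methods of the study, adult mice were male. Neither strain carries the *Dmd* mutation. The *mdx* mice (11 weeks) and D2-*mdx* mice (14 weeks) carry it on backgrounds related to B10 and DBA, and their libraries stand beside the comparison only to show whether a difference recurs. With 1 pooled library per strain there was no test, and strain, age, handling and library cannot be told apart. Reads of all 4 libraries were counted on the same reference genome, which is not that of the DBA strain. Whether DBA reads were lost or counted at another gene because of sequence differences was not tested. D2-*mdx* has a background related to DBA, so recurrence there cannot tell a difference in level from one in mapping.

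Satellite cells are the stem cells of skeletal muscle. They rest beneath the basal lamina of the myofiber in a quiescent state marked by *Pax7*, and after injury they activate *Myod1*, divide, and form myoblasts that express *Myog* and fuse. Dissociation of muscle itself brings on immediate-early genes such as *Fos* and *Egr1* within the hours of isolation. The DBA/2 background worsens dystrophy in D2-*mdx* mice, and variants in *Ltbp4*, which holds latent TGF-β in the matrix, and *Anxa6*, which takes part in membrane repair, are known from that background.

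The sums over the cells held 42059369 UMIs in B10 and 32323902 in DBA. Levels are given as counts per 1000000 of these UMIs (CPM), and ratios as the log2 of DBA over B10, so that a positive value is a higher level in DBA. Values in parentheses are exact 95% intervals, which cover counting error only and not the spread between mice or, for levels and ratios, between cells. The median cell held 8503 UMIs in B10 and 10354 in DBA. The deposited barcodes were unlike in the 2 libraries, since 4739 of 9931 held fewer than 1000 genes in B10 and 11 of 3539 in DBA, so shares are taken only over the cells that passed the filters. Of the listed satellite cell markers that the gate did not use, *Itga7*, the sorted integrin, stood at 62.6 CPM in B10 and 80.7 CPM in DBA, and *Vcam1*, also sorted on, at 388 CPM in B10 and 349 CPM in DBA. *Calcr*, which marks quiescent satellite cells, stood at 91.5 CPM in B10 and 71.1 CPM in DBA, and *Chrdl2* at 373 CPM in B10 and 302 CPM in DBA. *Sdc4* and *Cd34* were present in both libraries as well. The gate kept 96.8% (96.3 to 97.3) of the filtered cells in B10 and 84.8% (83.5 to 86.0) in DBA. Markers of other cell types were also found in the gated cells, and mostly at higher sums in DBA. The 5 pericyte markers summed to 49.0 CPM in B10 and 187 CPM in DBA, the 3 markers of vascular smooth muscle to 237 and 446 CPM, the 4 of white blood cells to 21.04 and 80.7 CPM, and the 4 of erythrocytes to 24.3 and 278 CPM. Endothelial markers summed to 2.57 and 3.12 CPM, those of glia and Schwann cells to 25.1 and 33.2 CPM, and those of myofibers to 27.3 and 21.7 CPM. The 4 markers of fibro-adipogenic cells and tenocytes summed to 519 and 746 CPM, of which *Dpt* alone made up 518 and 745 CPM. No marker of these lists was at 0 in either library. At the ends of the lists stood *Kcnj8* (log2 ratio 0.76) for pericytes, *Acta2* (0.83) for smooth muscle, *S100a8* (1.34) for white blood cells and *Acta1* (-0.13) for myofibers. For erythrocytes they were *Hba-a1* (4.51) and *Hbb-bt* (2.91). In DBA, 96.6% of the UMIs of white blood cell markers and 95.7% of those of erythrocytes lay in the 1% of cells that held the most, so few barcodes carried them, and for *Hba-a1* a single cell held 96.6%. For pericyte markers the share was 60.7%, and 70 cells of DBA (2.45%) against 13 of B10 (0.282%) held 5 UMIs or more of them. The 2 sets of gated cells shared 3 barcode sequences.

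B10 and DBA cells were alike at most genes. Of the 8411 genes at 10 CPM or more in either library, 90.8% differed by less than 1.5-fold, and the median log2 ratio was 0.02. A level at least 2-fold higher in DBA was found for 195 genes (2.32%), and one at least 2-fold lower for 136 (1.62%). Without the cells that held 5 or more UMIs of other cell types' markers (4552 cells of B10 and 2711 of DBA kept, an alternative chosen after seeing the data) the counts were 149 and 147. Here and below, this filter of 5 UMIs counted the markers of the lists above except *Acta1*, *Acta2* and *Dpt*. Near-identical genes, between which 3′ reads can be shared, were taken separately. A gene was set apart when the last 500 bases of 1 of its transcripts matched another gene over at least 100 bases at 95% identity or more, which held for 1823 of the genes tested. Among the 6580 genes without such a copy, 156 (2.37%) were higher and 109 (1.66%) lower. Among the 1823 with one, 39 (2.14%) were higher and 27 (1.48%) lower, so genes with a copy were not called more often.

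**Figure D1:**
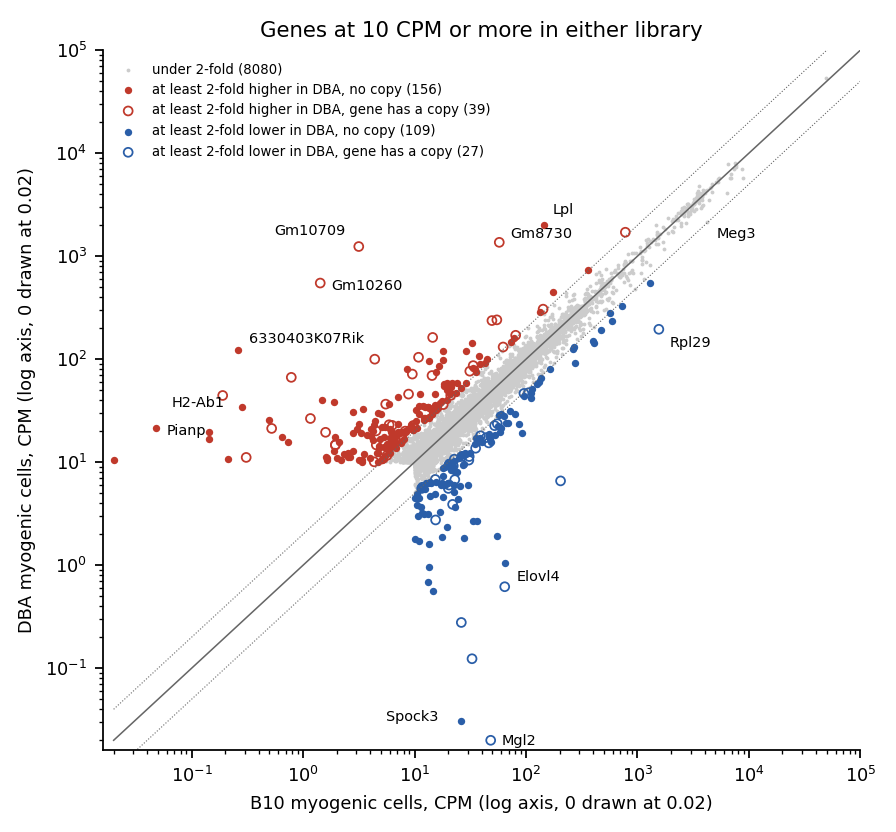
Level of each of 8411 genes in the summed myogenic cells of B10 (x axis, CPM, log scale) and DBA (y axis, CPM, log scale), with solid and dotted lines at equality and at 2-fold. Most genes lie between the dotted lines, and several of the points farthest from them, such as *Gm10709*, *Gm10260* and *Rpl29*, are open circles, which mark genes with a near-identical copy.

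Several of the most extreme ratios belonged to pairs of a gene and its processed copy. *Rpl29*, a protein of the large ribosomal subunit, stood at 1556 CPM (95% interval 1544 to 1568) in B10 and 195 CPM (95% interval 190.4 to 200.1) in DBA, a log2 ratio of -2.99 (-3.03 to -2.96). Its intronless copy *Gm10709*, annotated as a processed pseudogene, stood at 3.16 CPM (95% interval 2.65 to 3.75) in B10 and 1241 CPM (95% interval 1228 to 1253) in DBA, a log2 ratio of 8.62 (8.37 to 8.87). The parent was low where the copy was high. Together the pair held 1559 CPM in B10 and 1436 CPM in DBA, a log2 ratio of -0.12 (-0.14 to -0.10), and the copy took 0.203% of the pair in B10 and 86.4% in DBA. The same was seen for *Lamtor3*, which encodes a scaffold of the Ragulator complex on lysosomes, and *Gm5900*. *Lamtor3* stood at 46.3 CPM in B10 and 15.4 CPM in DBA, *Gm5900* stood at 0.190 CPM in B10 and 44.5 CPM in DBA, and the log2 ratio of their sum was 0.36 (0.27 to 0.46).

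Sequences of 4 parents and copies are shown as examples of bases that tell the parent from the copy. The stretches were not chosen at the 3′ ends, where reads are counted, so they do not show how many bases separated those reads. Each is 60 bases of the parent's coding sequence at a place where the copy differs most, with the aligned bases of the copy, read 5′ to 3′ from the GENCODE M21 transcripts of GRCm38 (the build of mm10), and capitals mark the bases that differ. These are the sequences of the reference genome, and those of DBA were not used here. *Rpl29* lies at chr9:106429454-106431568 (plus strand) and *Gm10709* at chr9:7751725-7752204 (plus strand). The 60 bases start at base 410 of the *Rpl29* coding sequence and differ by T14C and G48A, counted from 1 at the first base shown, with the parent's base first.
Rpl29: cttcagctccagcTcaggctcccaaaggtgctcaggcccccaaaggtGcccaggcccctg
Gm10709: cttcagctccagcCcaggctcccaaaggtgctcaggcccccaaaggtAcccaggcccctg
*Rps18*, of the small ribosomal subunit, lies at chr17:33951999-33956001 (minus strand) and *Gm10260*, annotated as protein coding, at chr13:97760072-97760632 (minus strand). They differ by A13C and G47A in the 60 bases from base 325 of the *Rps18* coding sequence.
Rps18: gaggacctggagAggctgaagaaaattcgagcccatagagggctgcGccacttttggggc
Gm10260: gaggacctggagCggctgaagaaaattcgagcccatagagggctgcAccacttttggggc
*Rplp0*, the stalk protein of the large subunit, lies at chr5:115559467-115563727 (plus strand) and its processed pseudogene *Gm8730* at chr8:102864845-102865798 (minus strand). They differ by A2G, A5G and A59T from base 389 of the *Rplp0* coding sequence.
Rplp0: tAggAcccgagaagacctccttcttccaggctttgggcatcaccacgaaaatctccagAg
Gm8730: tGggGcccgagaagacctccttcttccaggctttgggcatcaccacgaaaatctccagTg
*Lamtor3* lies at chr3:137918506-137928900 (plus strand) and its processed pseudogene *Gm5900* at chr7:104949915-104950289 (minus strand). They differ by C30T from base 82 of the *Lamtor3* coding sequence.
Lamtor3: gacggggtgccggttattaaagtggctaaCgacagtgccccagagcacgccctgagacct
Gm5900: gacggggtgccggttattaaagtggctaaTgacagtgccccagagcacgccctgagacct

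*Rps18* and *Rplp0* differed from *Rpl29*, since the parent had nearly the same level in both strains while the copy was higher in DBA. *Rps18* stood at 3075 CPM in B10 and 2899.6 CPM in DBA, and *Gm10260* at 1.43 CPM in B10 and 549 CPM in DBA, where it made up 15.9% of the pair. *Rplp0* stood at 3187 CPM in B10 and 3193 CPM in DBA, and *Gm8730* at 57.6 CPM in B10 and 1363 CPM in DBA, or 29.9% of the pair. The sums differed little for *Rps18* (log2 ratio 0.16, 0.15 to 0.18) and more for *Rplp0* (0.49, 0.48 to 0.50). In the share of the copy, the dystrophic libraries were split along the same line. *Gm10709* made up 0.0934% of its pair in *mdx* and 88.5% in D2-*mdx*, and *Gm5900* 0.313% and 74.6%. *Gm10260* made up 0.0387% and 24.1%, and *Gm8730* 2.37% and 39.5%. *Rps18* was lower on the DBA side in both comparisons, with log2 ratios of -0.08 for DBA over B10 and -0.51 for D2-*mdx* over *mdx*. *Rplp0* was level in the healthy pair and lower in D2-*mdx* (log2 ratio -0.77). The sums of the *Rps18* and *Rplp0* pairs changed direction. That of the *Rpl29* pair kept it with a larger difference, and that of the *Lamtor3* pair was similar in both. *Rpl29* and *Lamtor3* themselves kept their direction, with log2 ratios of -3.90 and -1.66 for D2-*mdx* over *mdx*. *Rps18* stood at 2500.5 CPM in *mdx* and 1752 CPM in D2-*mdx*, and *Rplp0* at 4289 and 2510 CPM. For D2-*mdx* over *mdx*, the log2 ratio of the sum was -0.79 for the *Rpl29* pair and -0.12 for the *Rps18* pair. It was -0.08 for the *Rplp0* pair and 0.32 for the *Lamtor3* pair. In B10 and *mdx* the copies stood at 3.16 CPM or less, apart from *Gm8730*, which had 57.6 and 104 CPM.

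**Figure D2:**
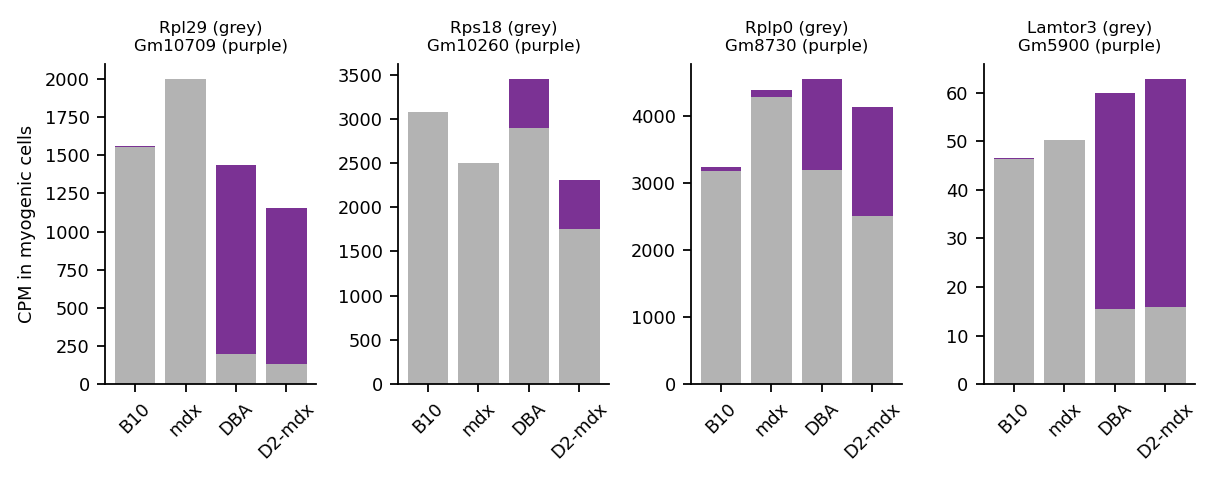
CPM in the summed myogenic cells (y axis) of 4 libraries (x axis) for 4 parent genes (grey) with 1 copy each (purple) stacked on top. In B10 and *mdx* nearly the whole bar is grey, whereas in DBA and D2-*mdx* the copy holds between 15.9% and 88.5% of it.

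Of the 331 genes that differed at least 2-fold, 36 matched another counted gene over at least 300 bases. Each was added to its copies, so that members of the same family share a sum and are counted once each. The sum differed by less than 2-fold for 24 of the genes and stayed at least 2-fold apart in the same direction for 12. The median size of the log2 ratio over the 36 genes was 2.32 for the gene and 0.36 for its family sum. A small member beside a far larger parent can move the sum little, and a copy with hardly any counts leaves it unchanged. These values alone therefore do not show where reads were shared. *Rnaset2b*, a lysosomal ribonuclease gene, stood at 64.5 CPM in B10 and 0.619 CPM in DBA against 62.4 CPM in B10 and 131 CPM in DBA for its neighbor *Rnaset2a*, and the log2 ratio of the family was 0.06 (0.00 to 0.12). *Tpm3-rs7* (log2 ratio 6.41) with *Tpm3*, which encodes a tropomyosin, gave -0.03, and *Gm10093* (log2 ratio 5.35) with the histone deacetylase gene *Hdac1* gave -0.03. *Gm10036* (204 CPM in B10 and 6.59 CPM in DBA, log2 ratio -4.95) gave -0.08 with the ribosomal protein gene *Rpl11*. That family held 2763 CPM in B10 and 2613 CPM in DBA, so a member this small could move its sum little. The families that stayed apart included *Mgl2* and *Clec10a*, a pair of macrophage galactose-type lectin genes. *Mgl2* had 48.2 CPM (95% interval 46.2 to 50.4) in B10 and 0 counts in DBA, where up to 3 counts could have been missed, so that it was at least 519-fold lower. With at least 500 genes per cell and no upper limit, the log2 ratio was -4.80, and DBA cells without a gate gene held 11 counts of it. Thinned to 3000 UMIs per cell, 13.1% (12.1 to 14.1) of B10 myogenic cells held a UMI of *Mgl2*, against 0% in DBA, which allows a share of up to 0.105%. Of the thinned cells without any UMI of the 4 gate genes, 0% in B10 and 0.446% in DBA held it. The 2 remaining genes among the 5 lowest with a copy were *Trim12a*, a gene of the tripartite motif family (32.8 CPM in B10 and 0.124 CPM in DBA), and *Sbsn*, which encodes the epidermal protein suprabasin (26.3 CPM in B10 and 0.278 CPM in DBA). Neither had a counted copy that matched over 300 bases. Over matches of at least 100 bases *Trim12a* had 2 counted copies, of which *Trim12c* had the longest match. The sum with them was 55.3 CPM in B10 and 28.3 CPM in DBA, a log2 ratio of -0.97 (-1.08 to -0.86), against -8.05 for *Trim12a* alone. The annotated span of *Sbsn*, introns included, overlaps that of the noncoding gene *Tmem147os* on the same strand, and whether reads were shared there was not tested.

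The highest ratios among genes without a copy included several that were read in cells throughout the DBA library. *6330403K07Rik*, an uncharacterized protein-coding gene at chr11:71031941-71033513, stood at 0.262 CPM (95% interval 0.131 to 0.468) in B10 and 124 CPM (95% interval 119.8 to 128) in DBA, a log2 ratio of 8.89 (8.04 to 9.89). After thinning, 0.0437% (0.00529 to 0.158) of B10 cells and 30.2% (28.5 to 31.9) of DBA cells held a UMI of it. The difference was present in the dystrophic libraries too, at 0.607 CPM in *mdx* and 114 CPM in D2-*mdx*. The cells without any UMI of the gate genes (109 and 448 after thinning) had high sums of pericyte markers, 5636 and 8712 CPM, and among them the shares were 0.917% and 23.9%. *Pianp*, which encodes a ligand of the PILRα receptor, stood at 21.3 CPM (95% interval 19.7 to 22.9) in DBA with 2 counts in B10 (log2 ratio 8.80, 6.95 to 11.85), and 12.1% of the DBA cells without a gate gene held it. *Ccdc42*, known for its role in sperm, had 0.143 CPM in B10 and 19.6 CPM in DBA (log2 ratio 7.10, 5.97 to 8.55), and was listed at 0 in *mdx* against 34.97 CPM in D2-*mdx*.

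*Tmem45a*, which encodes a membrane protein, was at 1.47 CPM in B10 and 40.3 CPM in DBA (log2 ratio 4.77, 4.41 to 5.17), and 43.97% of DBA cells without a gate gene held it after thinning, against 10.5% (9.43 to 11.7) of the myogenic cells. *Rftn1*, for the lipid raft protein raftlin, was at 1.90 CPM in B10 and 38.4 CPM in DBA (log2 ratio 4.34, 4.01 to 4.68). *Dcdc2a*, for a doublecortin domain protein that binds microtubules, was at 0.642 CPM in B10 and 17.6 CPM in DBA (log2 ratio 4.77, 4.22 to 5.39), and *Sorcs1*, for a sorting receptor, at 0.143 CPM in B10 and 16.7 CPM in DBA (log2 ratio 6.87, 5.74 to 8.32). *Cd22*, a sialic acid-binding receptor of B cells, was at 0.214 CPM in B10 and 10.8 CPM in DBA (log2 ratio 5.66, 4.72 to 6.80). Its thinned shares of cells were 0.109% (0.0355 to 0.255) in B10 and 3.71% (3.05 to 4.47) in DBA. No thinned cell without a gate gene held *Cd22*. In the unthinned cells each of these genes was found in between 9.70% and 33.2% of DBA cells. *Rftn1*, with a log2 ratio of 0.13 for D2-*mdx* over *mdx*, did not differ 2-fold there, and its level in *mdx* was 22.2 CPM. *Sorcs1* showed it in part, with 1.03 CPM in *mdx* and 1.95 CPM in D2-*mdx*.

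**Figure D3:**
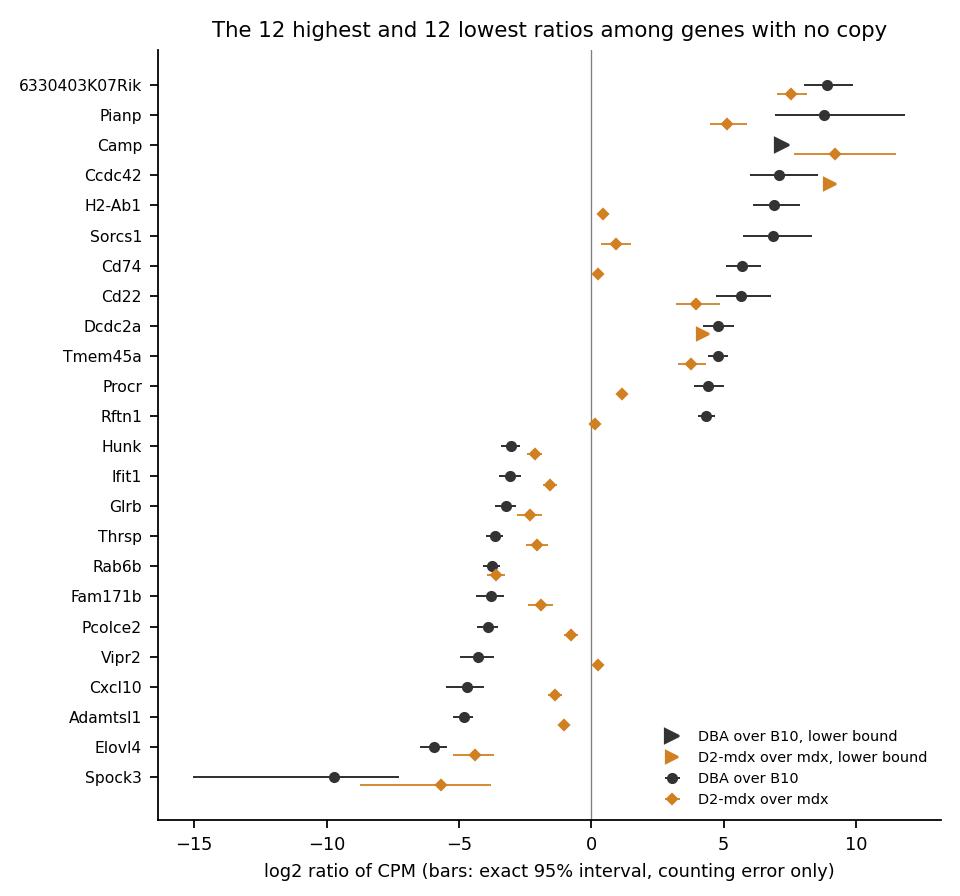
Log2 ratio of CPM (x axis) for the 12 highest and 12 lowest of the genes without a copy, as DBA over B10 (black) and D2-*mdx* over *mdx* (orange), with exact 95% intervals as bars and triangles for lower bounds against a library at 0. *H2-Ab1*, *Cd74* and *Rftn1* lie far right in black and near 0 in orange, and *Vipr2* lies at -4.28 in black and at 0.26 in orange.

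The highest ratios also included genes of blood cells, and these divided by how many cells carried them. *H2-Ab1*, a chain of the MHC class II molecule that presents peptides to T helper cells, stood at 0.285 CPM (95% interval 0.147 to 0.498) in B10 and 34.2 CPM (95% interval 32.3 to 36.3) in DBA, a log2 ratio of 6.91 (6.10 to 7.86). Its UMIs were spread over 731 of the 2857 DBA cells, and no cell held more than 21. Of these 731 cells, 24 (3.28%) had a UMI of *Cd74*, the invariant chain that class II molecules assemble with, and 17 (2.33%) of *Ptprc*, which encodes Cd45, against 1.23% and 0.875% of all DBA myogenic cells. Cells without *Cd74* held 913 of the 1107 *H2-Ab1* UMIs. In B10, 11 of 4611 cells had a UMI of *H2-Ab1*. Thinned, 0.153% (0.0615 to 0.315) of B10 and 8.33% (7.34 to 9.40) of DBA myogenic cells held one, against 1.83% and 1.34% of the cells without a gate gene, whose median depths were 8782.5 and 10979 UMIs. The other class II chains were found in far fewer DBA cells, *H2-Aa* in 40 and *H2-Eb1* in 26. In the dystrophic libraries the gap was small as a sum (15.7 CPM in *mdx* and 21.2 CPM in D2-*mdx*) but the cells differed: 41.4% of the cells with *H2-Ab1* had *Cd74* in *mdx* and 14.8% in D2-*mdx*, and cells without *Cd74* held 60 of 699 *H2-Ab1* UMIs in *mdx* and 351 of 803 in D2-*mdx*.

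*Cd74* and *Camp*, in contrast, were found in few cells, *Cd74* in 35 of DBA and 12 of B10. *Cd74* stood at 0.499 CPM in B10 and 25.99 CPM in DBA (log2 ratio 5.70, 5.08 to 6.40), and 99.2% of its UMIs in DBA lay in the top 1% of cells. *Camp*, the cathelicidin of neutrophils, had 340 counts in DBA and 0 in B10, at least 147-fold higher, but 335 of them were in 1 cell. *Procr*, the receptor of activated protein C, stood at 0.737 CPM in B10 and 15.7 CPM in DBA, and among the cells without a gate gene 37.6% in B10 and 72.8% in DBA held it. When cells with 5 or more UMIs of other cell types' markers were left out, the log2 ratio of *Cd74* went to 1.45. *Cd74* is itself among the markers counted, so the filter lowers it by rule. The ratio was 2.94 for *Procr*, 6.79 for *H2-Ab1* and 8.86 for *6330403K07Rik*, which are not among them.

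Of the 12 lowest ratios, 10 were also at least 2-fold lower in D2-*mdx* than in *mdx*, against 1.34% of all genes tested. *Spock3*, a secreted proteoglycan of the testican family, stood at 26.4 CPM (95% interval 24.9 to 27.99) in B10 and 0.0309 CPM (95% interval 0.000783 to 0.172) in DBA, with a single count in DBA and a log2 ratio of -9.74 (-15.04 to -7.26). Thinned, 8.70% (7.90 to 9.55) of B10 and 0.0350% (0.000886 to 0.195) of DBA cells held it, and its levels were 2.68 CPM in *mdx* and 0.0527 CPM in D2-*mdx*. *Elovl4*, which elongates very long-chain fatty acids, stood at 64.9 CPM (95% interval 62.5 to 67.4) in B10 and 1.05 CPM (95% interval 0.728 to 1.47) in DBA, a log2 ratio of -5.95 (-6.48 to -5.46), and was read in 13.2% (12.3 to 14.2) of B10 and 0.245% (0.0986 to 0.504) of DBA cells. *Adamtsl1*, an ADAMTS-like matrix protein without protease activity, stood at 54.4 CPM in B10 and 1.92 CPM in DBA (log2 ratio -4.83, -5.21 to -4.46). It also differed in the dystrophic pair, but less, at 34.7 CPM in *mdx* and 16.9 CPM in D2-*mdx*. All 3 were spread over B10 cells, the 1% of cells that held the most having 15.3%, 16.1% and 9.65% of the UMIs of *Spock3*, *Elovl4* and *Adamtsl1*. After thinning, no cell without a gate gene held *Spock3* or *Elovl4*. Unthinned, such cells held 4 counts of *Spock3* and 1 of *Elovl4* in B10 and 0 of either in DBA. The annotated span of *Adamtsl1*, introns included, overlaps that of *Sh3gl2* on the same strand, and that of *Spock3* overlaps *Gm45461*, *Gm45516* and *Gm45517*. Whether reads were shared there was not tested.

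Further genes low in DBA belonged to several classes. *Pcolce2*, an enhancer of procollagen processing, was at 27.7 CPM in B10 and 1.83 CPM in DBA (log2 ratio -3.92, -4.33 to -3.54). *Thrsp*, a regulator of lipogenesis, was at 33.5 CPM in B10 and 2.69 CPM in DBA (log2 ratio -3.64, -3.97 to -3.32), and *Rab6b*, a small GTPase of Golgi traffic, at 36.2 CPM in B10 and 2.66 CPM in DBA (log2 ratio -3.77, -4.10 to -3.45). *Glrb*, the β subunit of the glycine receptor, *Fam171b*, a membrane protein, and *Hunk*, a kinase related to AMPK, had log2 ratios of -3.22, -3.81 and -3.05. *Vipr2*, a receptor of vasoactive intestinal peptide, stood at 13.2 CPM in B10 and 0.681 CPM in DBA, but at 12.8 CPM in *mdx* and 15.3 CPM in D2-*mdx*, so the DBA library alone was low. The 2 interferon-induced genes of the group were *Cxcl10*, a chemokine, at 14.6 CPM in B10 and 0.557 CPM in DBA (log2 ratio -4.71, -5.48 to -4.04) and *Ifit1*, which binds viral RNA, at 13.5 CPM in B10 and 1.61 CPM in DBA (log2 ratio -3.07, -3.51 to -2.66). Both were found in few cells, 1.44% (1.12 to 1.83) and 2.71% (2.26 to 3.22) of thinned B10 cells, and 1 B10 cell held 63 UMIs of *Cxcl10*, whose log2 ratio lay between -6.42 and -3.14 over the alternatives. *Cxcl10* overlaps *Art3* on the other strand, and the strand setting of the counting is not given in the sources used here.

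**Figure D4:**
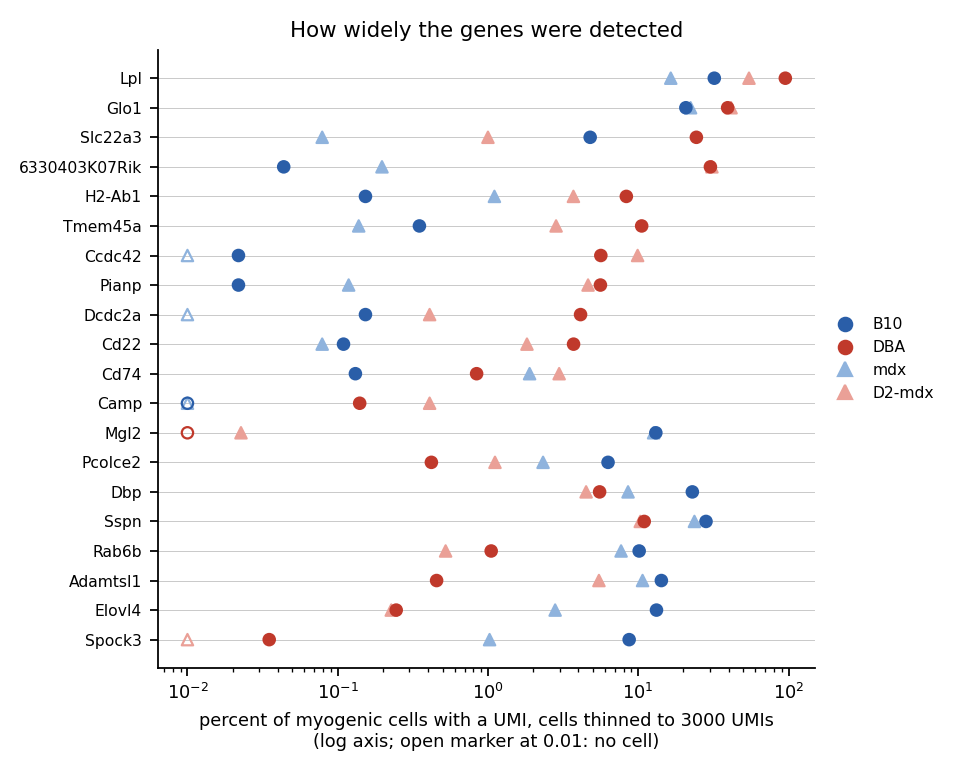
Percent of myogenic cells with a UMI of each gene (x axis, log scale) after thinning every cell to 3000 UMIs, in B10 and DBA (circles) and *mdx* and D2-*mdx* (triangles), with open markers where no cell held one. *Lpl* goes from 32.1% of B10 to 95.2% of DBA cells, *Mgl2* from 13.1% to none, and *6330403K07Rik* has nearly the same share in DBA (30.2%) and D2-*mdx* (30.9%).

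By the size of the difference in CPM, *Lpl* came second to *Malat1* alone among the genes higher in DBA. It encodes lipoprotein lipase, which releases fatty acids from circulating triglyceride, and belongs to the published list of genuine quiescence genes. *Lpl* stood at 144 CPM (95% interval 141 to 148) in B10 and 1990.5 CPM (95% interval 1975 to 2006) in DBA, a log2 ratio of 3.79 (3.75 to 3.82). A UMI was found in 32.1% (30.7 to 33.4) of thinned B10 cells and 95.2% (94.4 to 95.96) of thinned DBA cells, so that nearly every DBA cell held one. Among cells without a gate gene the shares were 47.7% and 74.1%. The dystrophic libraries were both lower, at 62.7 CPM in *mdx* and 372 CPM in D2-*mdx*, and kept the direction (log2 ratio 2.57). Across the alternatives tried, its log2 ratio for DBA over B10 lay between 3.61 and 3.84. Other genes among the 8 with the largest gain in CPM were *Malat1*, a nuclear RNA (49471 CPM in B10 and 53239 CPM in DBA), the ribosomal protein genes *Rps2* and *Rpsa* (log2 ratios 0.42 and 0.29), *Gm8730* and *Gm10709*.

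The largest losses in CPM were those of *Gm42418*, a noncoding RNA that overlaps ribosomal RNA, at 8935 CPM in B10 and 5713 CPM in DBA, and of the immediate-early gene *Egr1* at 6306 CPM in B10 and 4147 CPM in DBA. *Meg3*, the maternally expressed RNA of the imprinted Dlk1-Dio3 region, stood at 4229 CPM (95% interval 4209 to 4249) in B10 and 2148 CPM (95% interval 2132 to 2164) in DBA, just under 2-fold (log2 ratio -0.98, -0.99 to -0.96), and *Meg3* has a copy. *Rpl29*, described above, was also among the 8 largest losses. *Fos*, *Jund*, *mt-Atp6* and *mt-Co1* were lower by less, with log2 ratios of -0.33, -0.32, -0.26 and -0.22.

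The genes of myogenic identity differed by less than 2-fold, with *Pax7* and *Myf5* lower and *Myod1* higher in DBA. *Pax7* stood at 906 CPM (95% interval 897 to 915) in B10 and 679.8 CPM (95% interval 671 to 689) in DBA (log2 ratio -0.41, -0.44 to -0.39), and *Myf5*, its target in committed satellite cells, at 471 CPM in B10 and 415 CPM in DBA (log2 ratio -0.18, -0.22 to -0.15). *Myod1* stood at 105 CPM in B10 and 146 CPM in DBA (log2 ratio 0.48, 0.42 to 0.54) and *Myog* at 8.84 CPM in B10 and 17.3 CPM in DBA (log2 ratio 0.96, 0.77 to 1.16). *Myog* was held by 30 cells of B10 and 44 of DBA, 1 B10 cell holding 100 of the 372 UMIs. Its log2 ratio was -0.275 among cells at or above the median immediate-early share and 3.73 without cells of 3 or more cell cycle UMIs. Since these genes chose the cells, the values are a description. Of 16 other myogenic transcription factors, 1 was at least 2-fold higher and 0 lower, against 2.32% and 1.62% of all genes (median log2 ratio -0.16). That was *Mef2c*, a cofactor of differentiation, at 2.19 CPM in B10 and 10.5 CPM in DBA, and without the cells that held 5 or more UMIs of other cell types' markers its log2 ratio was 0.69. None of the 19 genes of Notch signalling, which maintains quiescence, passed 2-fold, from -0.57 for *Hes1* to 0.49 for *Dll1*.

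Genes of quiescence and the satellite cell surface had little shift in their medians, but some members differed. Of 31 tested, only *Slc22a3*, which encodes an organic cation transporter, was 2-fold apart, at 18.02 CPM (95% interval 16.8 to 19.4) in B10 and 99.3 CPM (95% interval 95.9 to 103) in DBA (log2 ratio 2.46, 2.35 to 2.58). It was read in 4.79% (4.19 to 5.44) of B10 and 24.4% (22.8 to 25.98) of DBA cells. The direction was the same in the dystrophic libraries at lower levels, 0.202 CPM in *mdx* and 3.37 CPM in D2-*mdx*. *Sdc4*, a heparan sulfate proteoglycan of the satellite cell surface, was the lowest, at 1133 CPM in B10 and 601 CPM in DBA (log2 ratio -0.92, -0.94 to -0.89). Of 178 genes of the published genuine quiescence list, 19 were higher and 5 lower, against 2.32% and 1.62% of all genes. Both counts lay above those shares, with a median of 0.03. Besides *Lpl*, *Slc22a3* and *Elovl4*, the members farthest apart, named after their values were seen, were *Alpl* (alkaline phosphatase, 2.81 CPM in B10 and 19.1 CPM in DBA), *Dio2* (the deiodinase that activates thyroid hormone, 4.97 CPM in B10 and 29.4 CPM in DBA), *Thy1* (a surface glycoprotein, 28.96 CPM in B10 and 119 CPM in DBA) and *Nnmt* (nicotinamide methyltransferase, 10.9 CPM in B10 and 1.73 CPM in DBA). The published lists are from earlier studies, but their use here was chosen with earlier results of these data known. Those for satellite cells, the primed core and myoblasts to myocytes, with 9, 83 and 16 genes tested, had medians of -0.18, 0.04 and 0.01. In these lists 0, 8 and 1 genes were higher and 0, 7 and 1 lower, against 2.32% and 1.62% of all genes. Both counts of the primed core lay above those shares. At their ends were *Lgals3*, a galectin (7.09 CPM in B10 and 43.1 CPM in DBA), *Lmod2*, an actin nucleator of the sarcomere (86.9 CPM in B10 and 23.5 CPM in DBA), *Bex1* (5.92 CPM in B10 and 23.1 CPM in DBA), *Lrrn1* (25.4 CPM in B10 and 11.5 CPM in DBA, under 2-fold with per-cell means at -0.90), and *Pde10a*, a phosphodiesterase (264 CPM in B10 and 420.03 CPM in DBA).

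Dystrophin and its partners differed by less than 2-fold except for sarcospan. *Dmd* stood at 325 CPM (95% interval 320.04 to 331) in B10 and 291 CPM (95% interval 285 to 297) in DBA (log2 ratio -0.16, -0.20 to -0.12). Of 14 genes of the dystrophin-glycoprotein complex, 1 was at least 2-fold apart, against 3.94% of all genes. *Sspn*, which encodes the membrane-spanning sarcospan, stood at 111 CPM (95% interval 108 to 114) in B10 and 41.8 CPM (95% interval 39.6 to 44.1) in DBA (log2 ratio -1.41, -1.498 to -1.32). *Sspn* overlaps *Sspnos* on the other strand. The same difference was present between the dystrophic libraries, at 93.4 CPM in *mdx* and 33.8 CPM in D2-*mdx*. *Sgcb*, β-sarcoglycan, was at the other end with 62.6 CPM in B10 and 85.3 CPM in DBA (log2 ratio 0.45, 0.37 to 0.52).

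Among 6 tested genes with alleles known from DBA/2J mice, 1 passed 2-fold, against 3.94% of all genes. *Glo1*, a glyoxalase that detoxifies methylglyoxal, stood at 80.8 CPM (95% interval 78.1 to 83.6) in B10 and 171 CPM (95% interval 166 to 175) in DBA (log2 ratio 1.08, 1.02 to 1.14), and at 86.3 CPM in *mdx* and 185 CPM in D2-*mdx*. It was found in 20.7% (19.6 to 21.9) of B10 and 39.3% (37.5 to 41.2) of DBA cells. Its 1 copy matched over less than 300 bases and is not among the counted genes. *Ltbp4* stood at 305 CPM (95% interval 300.02 to 311) in B10 and 192 CPM (95% interval 187 to 196) in DBA (log2 ratio -0.67, -0.72 to -0.63), a difference that did not recur at 113 CPM in *mdx* and 128 CPM in D2-*mdx*. *Anxa6* stood at 204 CPM (95% interval 200.2 to 209) in B10 and 231 CPM (95% interval 226 to 236) in DBA (log2 ratio 0.18, 0.13 to 0.22). Of 11 genes of the annexin list, which also holds S100 partners, *S100a4* was the lowest at 55.3 CPM in B10 and 23.6 CPM in DBA (log2 ratio -1.23, -1.35 to -1.11). With at least 500 genes per cell and no upper limit its log2 ratio was -0.69, and it was higher in D2-*mdx* (432 CPM) than in *mdx* (219 CPM). *Anxa5*, which binds phosphatidylserine, was the highest (log2 ratio 0.40, 0.38 to 0.43).

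The immediate-early and dissociation-response genes were lower in DBA at nearly all members. Of 33 tested, 5 were at least 2-fold lower and 0 higher, against 1.62% and 2.32% of all genes, 30 lay below 0, and the median log2 ratio was -0.54. Their sum was 47615 CPM in B10 and 37711 CPM in DBA. *Nfkbia*, the inhibitor of NF-κB, stood at 409.7 CPM (95% interval 404 to 416) in B10 and 144 CPM (95% interval 139.6 to 148) in DBA (log2 ratio -1.51, -1.56 to -1.47). The other 4, named after their values were seen, were the transcription factors *Atf3* (469.7 CPM in B10 and 190.2 CPM in DBA), *Klf4* (731 CPM in B10 and 326 CPM in DBA), *Klf2* (112 CPM in B10 and 46.96 CPM in DBA) and *Nr4a1* (271 CPM in B10 and 132 CPM in DBA). *Fosl2* was the highest at 0.04. The median share of a cell's UMIs in these genes was 4.64% in B10 and 3.77% in DBA. When cells were split at the pooled median of 4.20%, 46.3% of B10 and 56.0% of DBA cells fell below it, with 326 and 346 cells within 10% of the cut. Below the cut, where cells were chosen by these genes, the list's median was 0.03, and above it -0.49. Heat shock genes and chaperones, also raised by isolation, had a median of -0.17 with 0 of 22 past 2-fold, from *Hspb1* (561 CPM in B10 and 289.8 CPM in DBA) to *Chordc1* (0.19).

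Circadian genes were also lower on balance. Of 16 tested, 3 were lower and 1 higher, against 1.62% and 2.32% of all genes, with a median of -0.44. *Dbp*, a clock-controlled transcription factor, stood at 91.8 CPM (95% interval 88.9 to 94.7) in B10 and 19.2 CPM (95% interval 17.7 to 20.8) in DBA (log2 ratio -2.26, -2.38 to -2.13), and at 31.7 CPM in *mdx* and 14.2 CPM in D2-*mdx*. *Per3* (log2 ratio -1.22) and *Nr1d1* (log2 ratio -1.05) were the other 2 low genes, and *Cry1* the high one (6.09 CPM in B10 and 12.3 CPM in DBA, log2 ratio 1.01), which fell just short of 2-fold with TMM (0.99) and with per-cell means (0.91). The labels give no time of isolation. The 33 genes of glutathione and xenobiotic metabolism had a median of -0.01, with 14 above and 19 below 0. The metallothioneins *Mt2* (589 CPM in B10 and 233 CPM in DBA, log2 ratio -1.34, -1.37 to -1.30) and *Mt1* (log2 ratio -1.23) were the 2 that were at least 2-fold lower, and *Gsta4*, a glutathione transferase, the 1 that was higher (12.01 CPM in B10 and 35.3 CPM in DBA). Among cells below the cut on immediate-early genes the log2 ratio of *Dbp* was -2.14, while that of *Mt2* was -0.70 and that of *Nfkbia* -0.87.

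Interferon-stimulated genes were the list with the largest shift apart from markers of blood and vessel cells. Of 26 tested, 10 were lower and 1 higher, against 1.62% and 2.32% of all genes, the median was -0.83, and 24 lay below 0. The list summed to 1649.5 CPM in B10 and 1091 CPM in DBA. After *Ifit1*, the lowest were *Oasl2* (22.97 CPM in B10 and 3.71 CPM in DBA), *Ifit3* (10.2 CPM in B10 and 1.79 CPM in DBA) and *Gbp3* (10.7 CPM in B10 and 3.001 CPM in DBA), and *Irf1*, a transcription factor of the response, stood at 71.7 CPM in B10 and 31.1 CPM in DBA. In D2-*mdx* over *mdx* the log2 ratios of *Ifit1*, *Oasl2*, *Ifit3* and *Gbp3* were -1.56, -1.33, -1.25 and -1.28, while that of *Irf1* was -0.03. The median was -0.82 among cells below the cut on immediate-early genes, -0.99 above it, and -0.95 without the cells that held other cell types' markers. *Ifitm1*, the 1 gene higher in DBA, stood at 1.95 CPM in B10 and 14.8 CPM in DBA, and the cells without a gate gene had 202 and 554 CPM of it. Of 21 genes of antigen presentation, *H2-Ab1* and *Cd74* alone passed 2-fold, and the median was -0.08, with *Tap1*, the peptide transporter, lowest at -0.77. Of 14 chemokine and cytokine genes, *Cxcl10* alone passed it, and *Lifr* was the highest at 0.33.

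**Figure D5:**
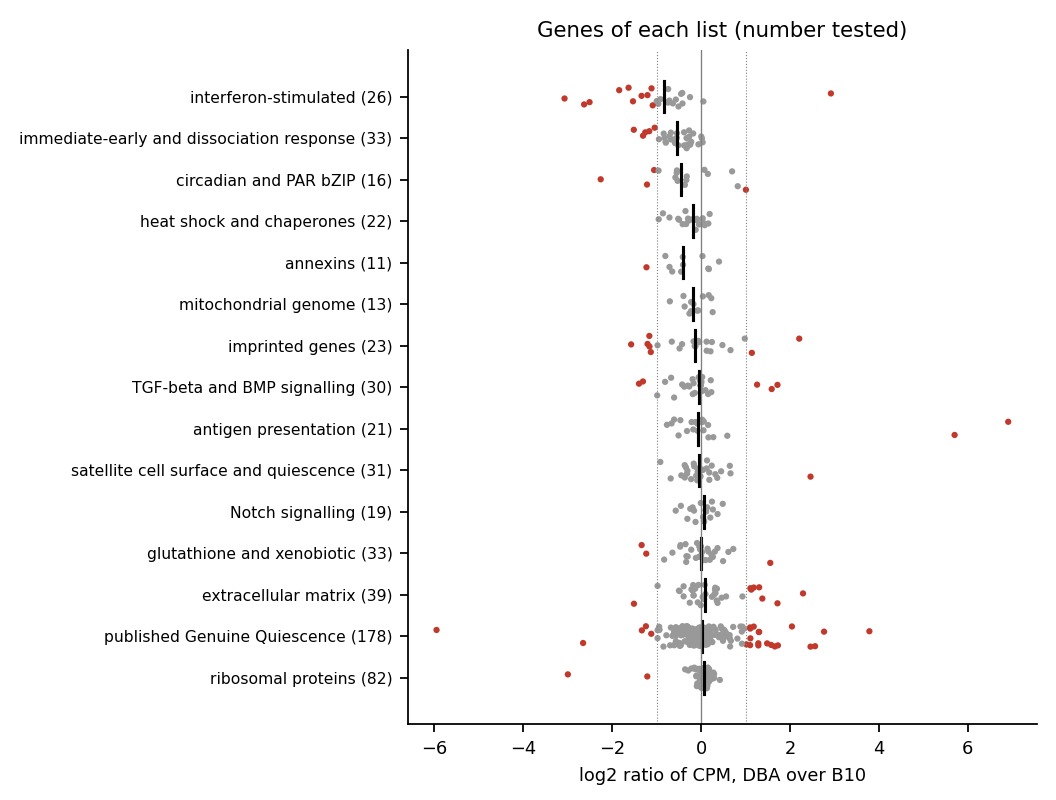
Log2 ratio of DBA over B10 (x axis) for each tested gene of 15 lists, with the number tested in parentheses, red where the gene is at least 2-fold apart, and a black bar at the median of the list. The interferon-stimulated and immediate-early lists have medians of -0.83 and -0.54, and most other lists are centred near 0 with single genes far out.

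Of 39 matrix genes tested, 7 were higher and 1 lower, against 2.32% and 1.62% of all genes, with a median of 0.08. *Postn*, the matricellular protein periostin, stood at 3.78 CPM in B10 and 18.5 CPM in DBA, *Col1a2*, of fibrillar collagen, at 13.3 CPM in B10 and 34.5 CPM in DBA, and *Fbln2*, a fibulin of basement membranes, at 33.6 CPM in B10 and 83.1 CPM in DBA. *Mgp*, an inhibitor of calcification, was the low one (17.7 CPM in B10 and 6.22 CPM in DBA), but 634 of its 744 UMIs in B10 lay in 1 cell. The sum of pericyte and smooth muscle markers was higher in DBA too, as given above, and their part in these values was not tested. Without the cells that held 5 or more UMIs of other cell types' markers, the log2 ratio of *Postn* went from 2.29 to 1.08. In the same cells *Myh11*, of smooth muscle (5.85 CPM in B10 and 36.6 CPM in DBA), went from 2.65 to 1.84, and *Colec11*, of pericytes (1.95 CPM in B10 and 17.5 CPM in DBA), from 3.17 to 1.35. Both are among the markers that the filter counts, so it lowers them by rule. Of 30 genes of TGF-β and BMP signalling, 3 were higher and 2 lower, again against 2.32% and 1.62% of all genes, with a median of -0.04. *Id1*, a target of BMP signals that holds back differentiation, stood at 399 CPM (95% interval 393 to 406) in B10 and 152 CPM (95% interval 148 to 156) in DBA (log2 ratio -1.39, -1.44 to -1.35), and *Smad7*, a feedback inhibitor, at 56.1 CPM in B10 and 22.7 CPM in DBA. *Thbs1*, which activates latent TGF-β, was at the other end (3.19 CPM in B10 and 10.5 CPM in DBA), and its log2 ratio went from 1.72 to 0.94 without those cells.

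The remaining lists had medians within 0.25 of 0, and their counts stand beside 1.62% lower and 2.32% higher of all genes. Of 23 imprinted genes, 5 were lower and 2 higher, both above those shares, with a median of -0.12. *Slc38a4*, an amino acid transporter, was the lowest (13.9 CPM in B10 and 4.67 CPM in DBA, log2 ratio -1.57, -1.84 to -1.31) and *Snrpn*, of the small nuclear ribonucleoproteins, the highest (2.81 CPM in B10 and 12.96 CPM in DBA, log2 ratio 2.21, 1.91 to 2.52). Of 82 ribosomal protein genes, 0 were higher and 2 lower, with a median of 0.06, the low ones being *Rpl29* and *Rpl6l* (52.3 CPM in B10 and 22.6 CPM in DBA). Both have copies, and the *Rpl29* pair is given above. *Rpl6l* with *Rpl6* gave a log2 ratio of -0.04. That family held 3844 CPM in B10 and 3748 CPM in DBA, so *Rpl6l* could move its sum little. The 13 genes of the mitochondrial genome had a median of -0.17, from *mt-Nd3* (-0.70) to *mt-Nd6* (0.26). Of the 8 tested genes of sarcomere and differentiation, *Tpm2*, a tropomyosin, was higher (21.4 CPM in B10 and 53.3 CPM in DBA, log2 ratio 1.32), but its log2 ratio was 0.56 without the cells that held other cell types' markers and 0.99 without doublets, and 91.96% of DBA cells without a gate gene held it. *Des*, for desmin, was the lowest (521 CPM in B10 and 305 CPM in DBA). Of 8 tested cell cycle genes none was 2-fold apart, from *Mcm6* (12.9 CPM in B10 and 6.84 CPM in DBA) to *Stmn1* (10.2 CPM in B10 and 17.7 CPM in DBA). The Y-linked genes *Ddx3y* (87.2 CPM in B10 and 105 CPM in DBA) and *Eif2s3y* (65.4 CPM in B10 and 63.6 CPM in DBA) differed by less than 1.5-fold, as did the other 2 tested genes of the sex chromosome list.

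The dystrophic pair gave a separate set of cells on related backgrounds. Of the 195 genes at least 2-fold higher in DBA, 83 were also at least 2-fold higher in D2-*mdx* than in *mdx*, 170 had the same direction, and 3 were at least 2-fold the other way. Of the 136 lower genes, 59 were at least 2-fold lower, 114 had the same direction and 0 were 2-fold opposite. Over all genes tested in DBA and B10, 1.52% were at least 2-fold higher and 1.34% lower in D2-*mdx*. The median log2 ratio of the 195 genes was 1.53 in the healthy pair and 0.84 in the dystrophic pair, and that of the 136 genes -1.36 and -0.83. The 4 libraries are separate samples and the pairs share no control, and each pair is again 1 library against 1. All were counted on the same reference genome, so recurrence cannot tell a difference in level from one in mapping.

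Genes apart at least 2-fold were found on all autosomes. Their share ran from 2.62% of 535 genes tested on chromosome 5 to 7.28% of 302 on chromosome 12, against 3.94% of all genes, and was 1.46% of 274 genes (4 genes, all higher) on the X chromosome. Called genes with at most 1 megabase between them were found together in places. *Mgl2* and *6330403K07Rik*, of opposite direction, lie within chr11:70130329-71033513, and *Trim12a* and *Gm5900*, also opposite, within the span from the β-globin genes to chr7:104949915-104950289. *Ccdc42* (log2 ratio 7.10) lies within 1 megabase of *Ntn1* (log2 ratio -1.96), which encodes the guidance cue netrin-1, on chromosome 11.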

How the data were processed

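Single-cell RNA of sorted hindlimb satellite cells was measured in 4 libraries, 1 per strain, each from 2 pooled mice. Per the labels, the authors made the deposited UMI counts with Cell Ranger 3.0.1 on mm10, as 1 matrix of 27998 genes per library, and how barcodes were chosen for deposit is not given in the sources used here. Groups were taken from the strain labels. Barcodes with 1000 to 5000 genes, at most 8% mitochondrial UMIs and at least 2 UMIs over Pax7, Myf5, Myod1 and Myog were kept, UMIs were summed per gene and library, and sums were scaled to CPM (Python 3.11.15, numpy 2.4.6, scipy 1.17.1, pandas 2.3.3). Doublets were left in, and removal of the highest Scrublet scores (scanpy 1.11.5) was an alternative.

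With 1 library per strain no test was run. A gene was called at a 2-fold difference if it reached 10 CPM in either library. Intervals are exact (Poisson for levels, binomial for ratios and shares, 95%). Those of ratios were tested only on simulated independent Poisson counts, which the intervals assume. That test cannot show how they do where the UMIs of a gene lie together in few cells. UMI counts carry molecular identifiers, so the intervals of levels and ratios cover the sampling of molecules and no spread between cells or mice. A gene at 0 counts was set to a floor of 3 counts. For shares of cells, 3000 UMIs were drawn at random from every cell, and 35 shallower cells of B10 were left out. Near-identical copies were sought with blastn 2.17.0 among GENCODE M21 transcripts (GRCm38) of 27645 of the counted genes. Since short matches chain genes through repeats, family sums in the text use matches of at least 300 bases. The sum given for *Trim12a* over matches of at least 100 bases is the exception.

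The genes named are the 12 highest and 12 lowest ratios without a copy, the 5 highest and 5 lowest with a copy, the 8 largest gains and losses in CPM, the ends of every list, the gate genes, Dmd, Ltbp4 and Anxa6, and others are named as chosen after their values were seen or to give the neighbors and partners of these. Some genes that this rule names are not reported here. The cells, lists and genes were chosen with earlier results of these data known. The lists of genuine quiescence, satellite cell, primed core and myoblast to myocyte genes are those that the study took from earlier work. Alternatives covered the cell filters, the gate, doublets, cell states, scaling (edgeR 4.0.16 and DESeq2 1.42.0 in R 4.3.3), thinning, the minimum level and gene copies.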

Additional observations from a re-analysis of the deposited data

Results flagged for a closer look

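For 3 genes the strain difference had opposite directions, at least 2-fold each way, in the healthy and the dystrophic pair, and the difference between the pairs was not tested. *Hbb-bt*, a β-globin gene, was higher in DBA than in B10 (14.7 against 1.95 CPM, log2 ratio 2.91) and lower in D2-*mdx* than in *mdx* (30.8 against 89.4 CPM, log2 ratio -1.54). In DBA 1 cell held 439 of its UMIs (92.4%), and after thinning to 3000 UMIs 0.455% of DBA and 0.546% of B10 cells held it. *Kif21a*, a kinesin, stood at 14.4 CPM in B10 and 29.5 CPM in DBA (log2 ratio 1.04) but at 26.5 CPM in *mdx* and 12.4 CPM in D2-*mdx* (log2 ratio -1.10). *Pcdh17*, a protocadherin, stood at 21.9 CPM in B10 and 59.2 CPM in DBA (log2 ratio 1.44) but at 10.8 CPM in *mdx* and 2.69 CPM in D2-*mdx* (log2 ratio -2.01). *Kif21a* and *Pcdh17* were named after their values were seen.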

How the results depend on the processing

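No paired analysis was possible because each strain had 1 library and the labels carry no replicate numbers, and for the same reason no library could be left out. The main counts were 195 genes higher (2.32% of 8411) and 136 lower (1.62%), with 27 higher and 31 lower among the genes of the lists. The counts of listed genes serve only to compare settings with each other. Against the main counts, a minimum of 50 CPM gave 50 and 40 genes (9 and 15 in the lists), and a minimum of 1 CPM gave 758 and 426 (62 and 47). Listed genes higher in DBA numbered 41 with at least 500 genes per cell and no upper limit, 15 without cells of 3 or more cell cycle UMIs, 17 in cells at or above the median immediate-early share and 12 without cells of 5 or more UMIs of other cell types' markers. Listed genes lower in DBA numbered 20 in cells below that median. Under the other alternatives higher genes ranged from 149 to 263 and lower genes from 109 to 203. Of the calls, 58.9% were higher, against 45.1% without the cells of 3 or more cell cycle UMIs, which left 1565 cells of B10 and 548 of DBA. Opposite directions were found for the erythrocyte list, with a median of -0.68 with at least 500 genes and 3.48 in the main setting. They were also found for *Hba-a1* (-0.15 at or above the immediate-early median and -0.43 without cells of other markers) and *Mgp* (0.11 with a gate of 1 UMI). *Hbb-bt* had -1.06 with at least 500 genes and -2.28 without cells of 3 or more cell cycle UMIs. It had -0.53 at or above the immediate-early median and -0.87 without cells of other markers. *Hba-a1* and *Hbb-bt* are among the markers by which the cells of other markers were left out. The cause was not tested. Leaving out every cell with any UMI of another cell type's marker kept 93 cells of B10 and 3 of DBA, and no values were taken from them. Counting error limits genes below 10 CPM, and the spread between mice was not measured.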
